A study of Homo sapiens with 8 samples.

Results

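STEAP1, STEAP2, STEAP3 and STEAP4 make up the STEAP family of membrane metalloreductases. They were taken by their gene symbol in the platform's probe table, which gave 1 feature for each of the 4 genes, out of 33616 genes with a single symbol and 23854 genes tested. The cells were PC-3, an androgen-independent line from a bone metastasis of a human prostate cancer, measured on Clariom D arrays. The 8 arrays form 4 groups of 2: both agents at once (the combination), TGF-β1 alone, calcitriol alone, and untreated control. Calcitriol was used at 10 nM, and the dose of TGF-β1 was 5 ng/mL. Treatment lasted 24 h, the labels name no vehicle for the controls, and they state 2 independent experiments per condition.

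STEAP proteins pass electrons from NADPH through a flavin and a membrane-bound heme to ferric iron and cupric copper, which cells import in the reduced form. STEAP2, STEAP3 and STEAP4 carry the NADPH-binding domain. STEAP1 lacks it and is known as a cell-surface antigen of prostate cancer. STEAP3 is the ferric reductase of the transferrin cycle in red cell precursors, and STEAP4 is known for its induction by inflammatory cytokines in fat and other tissues. Calcitriol, the active form of vitamin D, acts through a nuclear receptor, and TGF-β1 through SMAD proteins. The title of the study places the treatments among pathways that act against tumours.

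All 4 genes lay above background on all 8 arrays, where background is the 95th percentile of the array's 612 negative control features (log2 values of 4.62 to 4.90). Both agents left their known marks: CYP24A1, which breaks down calcitriol, rose with calcitriol (log2 change 4.46, adjusted p = 0.0247), and TGFBI rose with TGF-β1 (3.27, adjusted p = 0.000464). Both calls rest on 2 arrays per group, and the call on CYP24A1 was lost with a replicate block and without any 1 calcitriol, control or TGF-β1 array. Of the 8 epithelial markers with a feature, 8 lay above background on both combination and both TGF-β1 arrays, and 7 on both calcitriol and both control arrays. Their summed level on the log2 scale ran from 13.47 to 13.49 in the combination, 13.55 to 13.58 with TGF-β1, 13.39 to 13.45 with calcitriol and 13.44 to 13.49 in control. Of the marker lists for fibroblasts, leukocytes, endothelium and fat or liver cells, 2 to 4 genes each lay above background on both arrays of a group, so markers of other cell types were not all at background. Marker calls also moved with the groups. The epithelial keratin KRT7 rose in the combination (0.56 ± 0.10, adjusted p = 0.0422) and with TGF-β1 (0.70 ± 0.10, adjusted p = 0.0369), each against control. The leukocyte marker PTPRC was called lower in the combination than in control (adjusted p = 0.0244), but it lay above background on 1 of the 8 arrays, a control array. The part of these markers in the results below was not tested. In bulk RNA from a culture, fewer cells of a type and less RNA per cell cannot be told apart.

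The family was chosen by an earlier result on these arrays, the lower STEAP4 level with TGF-β1 and with the combination than in control. Those values are therefore a description and carry no test. The other differences below were taken from a limma fit to all 8 arrays, with p-values adjusted over all 23854 genes by Benjamini-Hochberg, and a gene is called changed at an adjusted p under 0.05. A feature's level is on its own scale, so levels are compared between groups of 1 gene and not between genes.

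STEAP4 was the member that moved most. Its log2 levels were 8.27 and 8.28 in the combination, 7.88 and 7.89 with TGF-β1, 9.15 and 9.07 with calcitriol, and 9.31 and 9.42 in control (replicates A and B in turn). No 2 groups overlapped, and the order from low to high was TGF-β1, combination, calcitriol, control. Group means were 8.28 ± 0.0025 in the combination, 7.89 ± 0.0060 with TGF-β1, 9.11 ± 0.057 with calcitriol and 9.37 ± 0.079 in control (SD, n = 2 each).

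With TGF-β1 alone, STEAP4 lay 1.48 below control on the log2 scale (log2 change -1.48 ± 0.098, SE, n = 2 per group), or 2.79-fold lower. This was the 20th largest change by size among the 23854 genes. In the combination it stood 2.13-fold lower than in control (log2 change -1.09 ± 0.098), the 83rd largest. Of all genes, 0.608% passed the threshold for TGF-β1 against control and 2.27% for the combination against control, and nothing is read from STEAP4 against these shares. The gap between positive and negative control features also moved with the groups, at 6.77 and 6.70 in the combination, 6.91 and 6.94 with TGF-β1, 6.93 and 7.02 with calcitriol, and 7.02 and 7.04 in control on the log2 scale. Its part in the result was not tested.

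**Figure D1:**
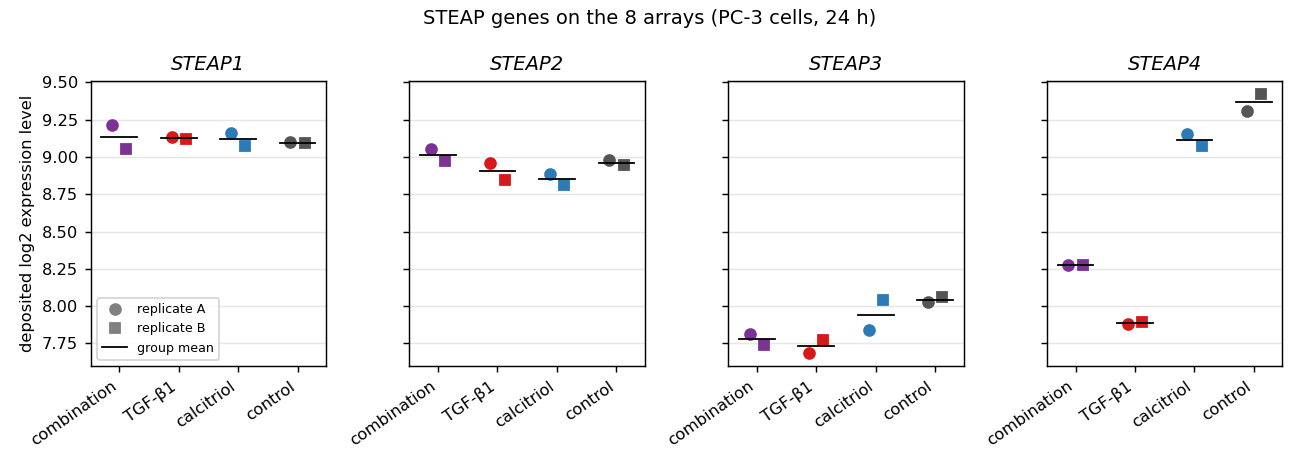
Deposited log2 expression level (y axis) of STEAP1, STEAP2, STEAP3 and STEAP4 on each array, by treatment group (x axis); "combination" is calcitriol with TGF-β1, circles are replicate A, squares replicate B and bars the group means. STEAP4 sits at 7.88 to 8.28 on the 4 arrays with TGF-β1 and at 9.07 to 9.42 on the other arrays, while STEAP1 stays between 9.05 and 9.21 on all of them.

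The effect of TGF-β1 on STEAP4 in calcitriol-treated cells compares the combination with calcitriol alone. STEAP4 was 1.78-fold lower in the combination (log2 change -0.83 ± 0.098), and 0.587% of all genes passed in this comparison. The low STEAP4 level on the combination arrays also led to the choice of the family, so this difference is a description with no test. Without single arrays the change ran from -0.87 to -0.79.

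Calcitriol alone left STEAP4 0.26 lower than control (log2 change -0.26 ± 0.098, 95% interval -0.48 to -0.03, adjusted p = 0.655). The control arrays also entered the comparisons that led to the choice of the family. The groups did not overlap, yet the difference did not pass the test. In the combination STEAP4 stood 0.39 ± 0.098 above TGF-β1 alone, again with no overlap. Both of these groups were the ones whose low STEAP4 led to the choice, so this difference is a description with no test. In limma, 0.00838% of the genes passed for calcitriol against control, and 7.34% had an unadjusted p under 0.05. For the combination against TGF-β1, 0 genes passed in limma, and 9.26% had an unadjusted p under 0.05.

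The interaction asks whether the effects of the agents on STEAP4 add up on the log2 scale. The combination stood 0.65 ± 0.14 above the sum of both single effects. This value is built from the arrays that led to the choice, and a gene picked for a low level with TGF-β1 is more likely to give a positive one, so it carries no test. Over all genes, 0 of the 23854 genes passed the interaction in limma, and 5.15% had an unadjusted p under 0.05.

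The promoter of STEAP4 is shown because it belongs to the member that fell. The window holds the 250 bases before the gene start from RefSeq (GRCh38.p14, chr7:88306895-88307144, minus strand), and capitals mark the matches found among the motifs searched.
STEAP4: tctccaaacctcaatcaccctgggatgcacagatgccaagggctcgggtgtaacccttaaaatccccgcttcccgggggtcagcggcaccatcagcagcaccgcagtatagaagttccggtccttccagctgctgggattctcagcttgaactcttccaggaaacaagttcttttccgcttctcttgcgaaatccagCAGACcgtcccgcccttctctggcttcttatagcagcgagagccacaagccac

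The search covered CAGAC (the core of SMAD binding sites), AGGTCA (a half-site of nuclear receptors), CACCTG (an E-box form) and TATAAA, on both strands. STEAP4 held CAGAC 1 time and none of the other letters. CAGAC is found in 38.0% of the 35114 promoter windows of this length, AGGTCA in 12.1%, CACCTG in 17.5% and TATAAA in 10.7%. The STEAP3 window held 0 matches to any of them. These are matches of letters and not shown sites.

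STEAP1, the member without the NADPH-binding domain, was level across treatments. It stood at 9.21 and 9.05 in the combination, 9.13 and 9.12 with TGF-β1, 9.16 and 9.07 with calcitriol, and 9.10 and 9.09 in control. The group means spanned 0.036 on the log2 scale, and the combination arrays ranged around all the others. Against control the log2 change was 0.04 in the combination (95% interval -0.20 to 0.27, adjusted p = 0.861), 0.03 with TGF-β1 (-0.21 to 0.27, adjusted p = 0.926) and 0.02 with calcitriol (-0.22 to 0.26, adjusted p = 0.974). These intervals bound what the arrays could have missed.

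STEAP1 has a close relative, STEAP1B, on the same chromosome, and array probes may not fully separate the pair. Their promoters show how near the copies are. Over 250 bases before the gene start (GRCh38.p14; STEAP1 at chr7:90154219-90154468, plus strand; STEAP1B at chr7:22500189-22500438, minus strand) they share 244 bases, or 97.6%, and differ at 6, which are in capitals. Of 35113 other promoter windows compared without gaps, 1 shared 200 or more bases with that of STEAP1, and it was STEAP1B.
STEAP1: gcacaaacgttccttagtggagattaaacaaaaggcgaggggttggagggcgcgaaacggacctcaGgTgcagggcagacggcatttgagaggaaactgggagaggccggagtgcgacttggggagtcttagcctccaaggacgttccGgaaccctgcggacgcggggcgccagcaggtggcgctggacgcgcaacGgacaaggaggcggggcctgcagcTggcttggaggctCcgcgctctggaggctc
STEAP1B: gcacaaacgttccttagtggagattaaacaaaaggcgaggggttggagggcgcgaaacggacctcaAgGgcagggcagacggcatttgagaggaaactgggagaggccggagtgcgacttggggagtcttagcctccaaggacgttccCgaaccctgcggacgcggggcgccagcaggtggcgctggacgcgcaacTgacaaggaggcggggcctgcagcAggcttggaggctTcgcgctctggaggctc

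The STEAP1 window held CACCTG or its reverse form 2 times and the STEAP1B window 1 time, and each held CAGAC 1 time. STEAP1B had levels of 7.43 and 7.24 in the combination, 7.17 and 7.42 with TGF-β1, 7.20 and 7.07 with calcitriol, and 7.002 and 7.011 in control. All 6 treated arrays lay above both controls, but the changes did not pass, at 0.33 ± 0.13 for the combination (adjusted p = 0.167), 0.29 ± 0.13 for TGF-β1 (adjusted p = 0.400) and 0.13 ± 0.13 for calcitriol (adjusted p = 0.847). Of all genes, 20.6% lay apart and higher in the combination than in control, 17.1% with TGF-β1 and 13.5% with calcitriol. These comparisons share the same control arrays. The share of genes with all 6 treated arrays higher was not counted, so nothing is read from it.

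STEAP2, a reductase first described in prostate tissue, also varied little. Its levels were 9.06 and 8.97 in the combination, 8.96 and 8.85 with TGF-β1, 8.89 and 8.81 with calcitriol, and 8.98 and 8.94 in control. The means ran from 8.85 with calcitriol to 9.02 in the combination. Calcitriol stood just below control with no overlap, and the combination just above TGF-β1 with no overlap. Against control the log2 change was 0.05 in the combination (95% interval -0.18 to 0.29, adjusted p = 0.782), -0.06 with TGF-β1 (-0.29 to 0.17, adjusted p = 0.858) and -0.11 with calcitriol (-0.34 to 0.12, adjusted p = 0.829). The value for TGF-β1 changed sign to 0.0015 after cyclic loess over protein-coding genes.

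STEAP2 has 2 promoter windows, and 1 of them shares its start region with an antisense RNA, STEAP2-AS1. The 250-base windows before these starts, on opposite strands, overlap by 104 bases. The other STEAP2 window overlaps that of STEAP2-AS1 by 0 bases. The antisense RNA was above background on 0 of 2 combination arrays, 1 of 2 TGF-β1 arrays, 2 of 2 calcitriol arrays and 2 of 2 control arrays. Its levels were 4.28 and 4.62 in the combination, 5.04 and 4.72 with TGF-β1, 4.80 and 5.14 with calcitriol, and 5.12 and 4.98 in control (adjusted p = 0.105 for the combination against control). STEAP3-AS1, antisense to STEAP3, was above background on 0 of 8 arrays.

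STEAP3, the reductase of the transferrin cycle, had levels of 7.82 and 7.74 in the combination, 7.68 and 7.77 with TGF-β1, 7.84 and 8.04 with calcitriol, and 8.03 and 8.06 in control. The 4 arrays with TGF-β1 all lay below the 4 without it, though the nearest ones, a combination and a calcitriol array, were at 7.82 and 7.84. The share of all genes that split in this way was not counted, so nothing is read from it. Of all genes, 26.1% lay apart and lower with TGF-β1 than in control. In the combination 33.7% lay apart and lower than in control, and 27.8% than with calcitriol. TGF-β1 stood 0.31 ± 0.11 below control (95% interval -0.57 to -0.06, adjusted p = 0.300) and the combination 0.27 ± 0.11 below (-0.52 to -0.01, adjusted p = 0.190). The combination against calcitriol gave -0.16 ± 0.11 (adjusted p = 0.522), and calcitriol against control -0.11 ± 0.11 (adjusted p = 0.860). None of these passed. Over 17 alternatives, the change against control ran from -0.36 to -0.25 with TGF-β1 and from -0.31 to -0.15 in the combination. Only rescaling and leaving out arrays of the groups compared could move it. The median log2 change of all protein-coding genes was -0.06 with TGF-β1 and -0.12 in the combination, each against control.

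Counted over the family, the arrays of TGF-β1 and control did not overlap for 3 of the 4 members, 1 higher and 2 lower with TGF-β1, against 43.2% of all genes (17.1% higher and 26.1% lower). In the combination against control 2 of 4 did not overlap, both lower, against 54.3% of all genes (20.6% higher and 33.7% lower). For calcitriol against control it was 2 of 4, both lower, against 36.7% (13.5% higher and 23.2% lower). STEAP4 is among the members apart in all 5 comparisons here, and among the lower ones in these 3. Its low level with TGF-β1 and in the combination led to the choice of the family. The counts for those groups against control therefore hold a member whose place was fixed in advance. The counts lie near the background, and nothing is read from them. For the combination against TGF-β1, 2 of 4 were apart, both higher, against 44.1% (18.5% higher and 25.7% lower). For the combination against calcitriol, 3 of 4 were apart, 1 higher and 2 lower, against 48.4% (20.6% higher and 27.8% lower). By the adjusted threshold, 0 of the 3 members other than STEAP4 passed in any of the 5 comparisons.

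**Figure D2:**
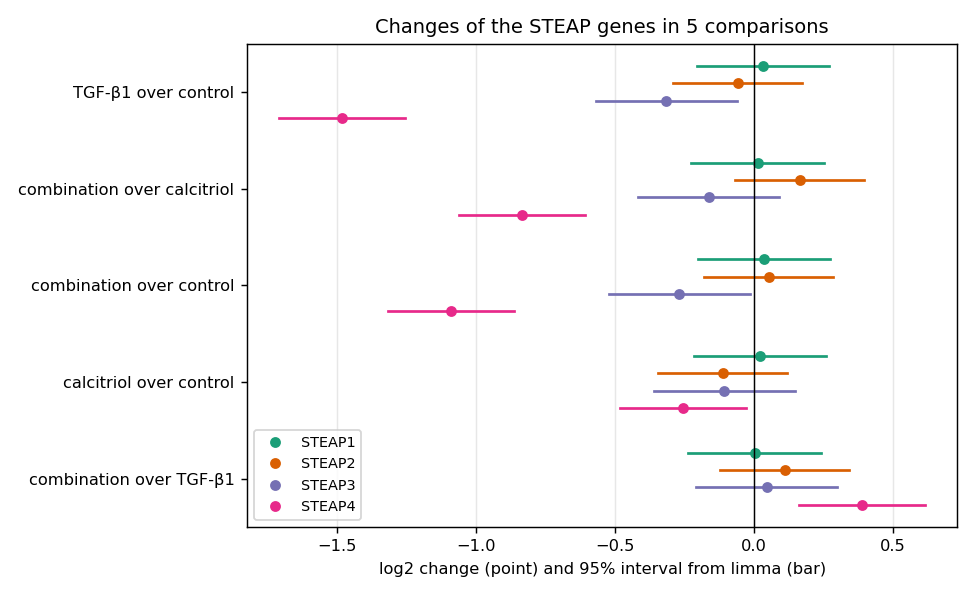
Log2 change (x axis) of the 4 STEAP genes in 5 comparisons (y axis); points are limma estimates and bars their 95% intervals, from 2 arrays per group. STEAP4 lies at -1.48, -0.83 and -1.09 in the comparisons that add TGF-β1, at -0.26 for calcitriol over control and at 0.39 for the combination over TGF-β1, whereas the intervals of STEAP1 and STEAP2 span 0 throughout. Those of STEAP3 lie below 0 for TGF-β1 and for the combination over control and span 0 elsewhere. No STEAP3 change passed the adjusted threshold. The low STEAP4 level with TGF-β1 and in the combination led to the choice of the family, so its values in those groups are a description.

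The genes most like STEAP4 in pattern were HPGD (Pearson r = 0.994), which breaks down prostaglandins, APOBEC3D (0.991), a cytidine deaminase, RDH10 (0.982), a retinol dehydrogenase, CCNA1 (0.979), a cyclin, and SPRY1 (0.975), which dampens growth factor signals. The likeness is over the 8 arrays and among 1801 protein-coding genes whose group means span at least 0.5. All points share their 4 treatment groups, so any gene that separates the arrays with TGF-β1 from the rest scores high. HPGD came closest, with 7.55 and 7.52 in the combination, 7.08 and 6.95 with TGF-β1, 8.66 and 8.70 with calcitriol and 9.01 and 8.89 in control. All 5 genes, like STEAP4, had their lowest mean with TGF-β1 alone, which follows largely from their choice by r over the same arrays. The combination and TGF-β1 arrays did not overlap for HPGD, APOBEC3D (8.28 and 8.25 in the combination, 8.16 and 8.08 with TGF-β1) and RDH10 (7.63 and 7.70 in the combination, 7.47 and 7.59 with TGF-β1), and they overlapped for CCNA1 and SPRY1. Of all genes, 18.5% lay apart and higher in the combination than with TGF-β1, and 25.7% apart and lower. SPRY1 had 8.05 and 8.23 in the combination and 8.05 and 8.10 with TGF-β1, against 9.60 and 9.67 with calcitriol and 9.90 and 9.94 in control.

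**Figure D3:**
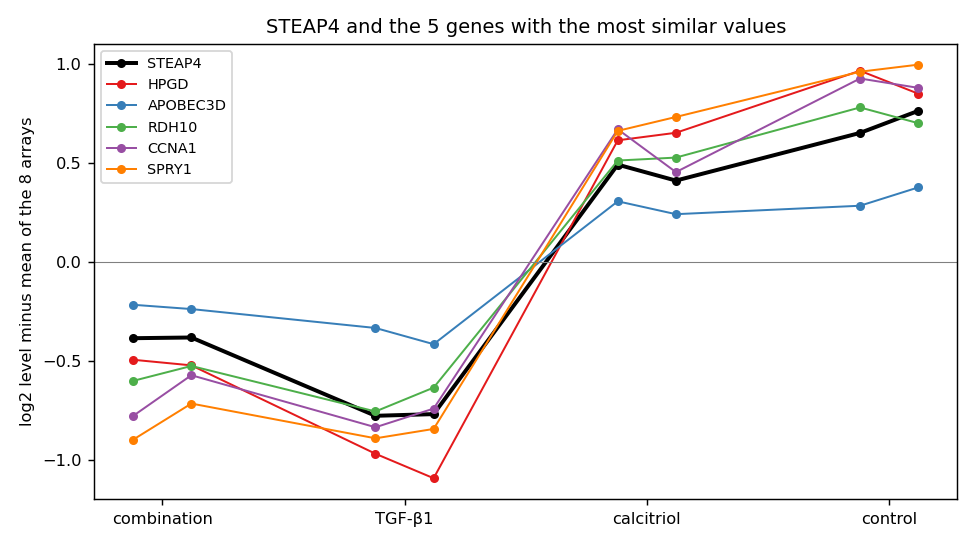
Log2 level minus the gene's mean over the 8 arrays (y axis) for STEAP4 and the 5 genes with the highest Pearson r with it, by group (x axis; in each group the left point is replicate A and the right one replicate B; lines only join the points of a gene). All 6 genes have their lowest mean with TGF-β1 alone, and r with STEAP4 runs from 0.975 to 0.994. The 5 genes were picked by r over these same arrays, so the shared order is no separate result.

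Along the chromosomes, the 3 nearest named genes on each side of the 4 members give 18 genes other than the members themselves, of which 13 were tested. Of these 13, 0 passed in limma in any of the 6 comparisons, beside 0% to 2.27% of all genes. The lowest adjusted p was 0.0953. It belonged to ADAM22, a cell adhesion protein and neighbour of STEAP4. ADAM22 had 6.67 and 6.39 in the combination, 6.54 and 6.34 with TGF-β1, 6.74 and 6.71 with calcitriol and 7.25 and 6.91 in control (-0.55 ± 0.15 for the combination, adjusted p = 0.0953, and -0.64 ± 0.15 for TGF-β1, adjusted p = 0.152). SRI, a calcium-binding protein gene that lies between ADAM22 and STEAP4, stood at -0.20 ± 0.11 with TGF-β1 (adjusted p = 0.503).

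The metals that STEAP proteins reduce are handled by other genes, which were counted from lists. Of 26 tested genes of iron handling, 0 rose and 0 fell in any of the 6 comparisons, in which 0% to 2.27% of all genes passed. Their median log2 change was -0.14 in the combination and -0.06 with TGF-β1 against control, beside -0.12 and -0.06 over all protein-coding genes. A variance model that is robust and follows the mean level called 1 iron gene higher with TGF-β1 and 1 lower in the combination. Both comparisons are against control, and the model called 762 and 3072 of all genes in them, in that order. The transferrin receptor TFRC, which brings iron to the endosome, averaged 11.35 ± 0.064 in the combination, 11.42 ± 0.066 with TGF-β1, 11.41 ± 0.0085 with calcitriol and 11.46 ± 0.018 in control (SD, n = 2 each). The importer SLC11A2, which takes up the ferrous iron that a reductase makes, stood at 0.21 ± 0.15 (adjusted p = 0.431) in the combination and 0.07 ± 0.15 (adjusted p = 0.891) with TGF-β1. The exporter SLC40A1 stood at -0.26 ± 0.17 (adjusted p = 0.381) and 0.06 ± 0.17 (adjusted p = 0.910) in the same comparisons. These genes were picked for their roles after the values were seen.

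Of 23 tested genes of copper handling, 0 rose and 0 fell in the 6 comparisons, beside 0% to 2.27% of all genes that passed. Their median was 0.04 in the combination and 0.13 with TGF-β1 against control. In other settings some passed. With TGF-β1 against control 1 rose with features above the 75th percentile, 1 after cyclic loess and 7 with the robust variance model. These called 364, 271 and 762 of all genes. In the combination against control they called 1, 2 and 7 higher, beside 1811, 572 and 3072 of all genes. There 1 also rose with protein-coding genes only (931 genes called), and 1 and 2 fell with the 75th percentile and the robust model. The copper importer SLC31A1 averaged 9.94 ± 0.062 in the combination, 10.01 ± 0.0018 with TGF-β1, 10.02 ± 0.0082 with calcitriol and 10.11 ± 0.034 in control (SD, n = 2 each). Of 12 tested genes for other membrane reductases, 0 rose and 0 fell as well, beside the same shares of all genes (median -0.11 and -0.02). Among them CYBRD1, a ferric reductase of the gut, stood at -0.27 ± 0.10 in the combination (adjusted p = 0.163) and -0.37 ± 0.10 with TGF-β1 (adjusted p = 0.194). SLC31A1 and CYBRD1 were likewise picked for their roles.

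Among the lists tied to single STEAP genes, a few members passed the threshold, beside 0.608% of all genes with TGF-β1, 2.27% in the combination and 0.00838% with calcitriol, each against control. STEAP4 is known to answer to cytokines, and of 25 tested inflammatory and metabolic genes 2 rose and 0 fell with TGF-β1, 3 rose and 1 fell in the combination, and 0 changed with calcitriol, each against control. The cytokine IL6 rose in the combination (2.13 ± 0.15, adjusted p = 0.00275) and with TGF-β1 (1.99 ± 0.15, adjusted p = 0.00315). IL1B rose too, by 0.97 ± 0.095 (adjusted p = 0.00723) and 0.94 ± 0.095 (adjusted p = 0.0124) in the same comparisons. In the combination TNFAIP3, a brake on NF-κB, rose by 0.76 ± 0.14 (adjusted p = 0.0424) and PPARG, a regulator of fat cell genes, fell by 0.48 on the log2 scale (-0.48 ± 0.093, adjusted p = 0.0451). PPARG did not pass after cyclic loess over protein-coding genes, after quantile normalization, with no filter on low values, with a replicate block, with only the arrays compared or without any 1 of the 8 arrays. Without TGF-β1 replicate B, 0 of these genes rose with TGF-β1, and without TGF-β1 replicate A or either control array 1 did. In the combination 1 rose without either combination array or control replicate B. With only the arrays compared, 1 rose with TGF-β1 and 1 in the combination. IL6 and IL1B were higher in the same groups in which STEAP4 was lower.

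STEAP3 is also known as a target of p53. Of 19 tested p53 targets 1 rose and 0 fell with TGF-β1, and likewise in the combination. That gene was CDKN1A, a cell cycle inhibitor (1.08 ± 0.14, adjusted p = 0.0161 in the combination, and 1.09 ± 0.14, adjusted p = 0.0245 with TGF-β1). Of 13 tested androgen-related and prostate genes, 0 rose and 2 fell in the combination, 0 changed with TGF-β1 and 0 with calcitriol. NDRG1, a stress and differentiation gene, changed by -0.74 ± 0.11 (adjusted p = 0.0267), and HOXB13, a prostate homeobox factor, by -0.60 ± 0.11 (adjusted p = 0.0424). With TGF-β1 against control, some other settings called 1 gene of this list lower. These were features above the 75th percentile, cyclic loess, protein-coding genes only and the robust variance model. They called 364, 271, 242 and 762 of all genes, in that order. The call on CDKN1A with TGF-β1 and those on NDRG1 and HOXB13 were lost with no filter on low values, with a replicate block and with only the arrays compared. Without any 1 of the 8 arrays CDKN1A did not pass with TGF-β1, and at most 1 of NDRG1 and HOXB13 passed in the combination. CDKN1A in the combination did not pass without any 1 of the combination or control arrays, or with only the arrays compared. The prostate protease KLK3 stood at -0.08 ± 0.17 (adjusted p = 0.823) in the combination, and was picked for its role after the values were seen.

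**Figure D4:**
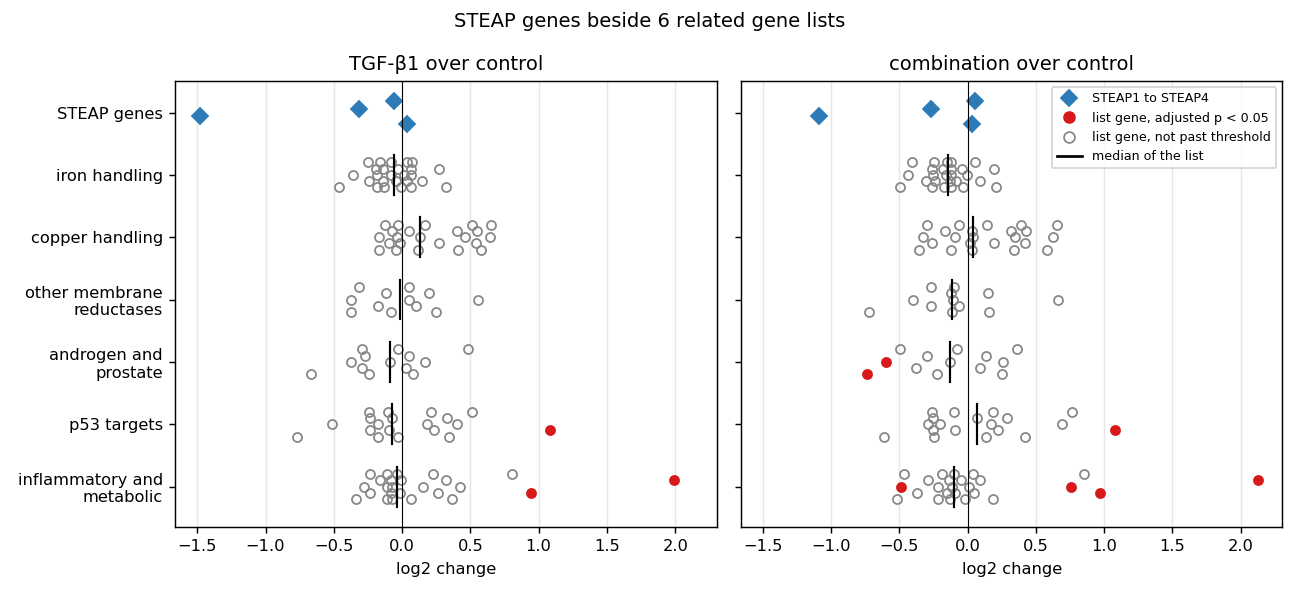
Log2 change (x axis) of the STEAP genes (diamonds) and of the genes of 6 lists (circles; red where the adjusted p is under 0.05), for TGF-β1 over control on the left and the combination over control on the right; black bars are list medians, and the vertical scatter within a row has no meaning. STEAP4, at -1.48 and -1.09, lies further below 0 than any listed gene. These 2 values led to the choice of the family, so its place is a description and no result. None of the iron, copper or reductase genes is red.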

How the data were processed

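The deposited log2 values of 138745 features on 8 PC-3 arrays were used. The submitters' processing notes name RMA, oligo and limma with no version. Base 2 is assumed from the usual output of RMA. How the steps followed each other, and on which build, is not stated in the labels. Array medians were 4.33 to 4.35, so the authors had scaled the arrays. Replicates correlated at 0.988 to 0.991 across genes. The number of arrays limits the precision.

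Features above 4.34, the 50th percentile, on at least 2 arrays were kept, with the brightest feature per gene (23854 genes, 14793 protein-coding). A model with a mean for each group was fitted over the 8 arrays (limma 3.58.1 under R 4.3.3) with 4 residual degrees of freedom, 6 two-sided contrasts and Benjamini-Hochberg adjustment, after a test on simulated data. Exact permutation of 2 against 2 arrays cannot reach a p of 0.05. Alternatives changed the filter, the feature per gene, the scaling, the genes tested, the variance model, the arrays fitted and the block. Members and lists were chosen with earlier results of these data known. Named genes were, by rule, the STEAP genes, their RefSeq neighbours, the genes most like STEAP4, the treatment checks and up to 4 changed genes per list; TFRC, SLC11A2, SLC40A1, SLC31A1, CYBRD1, KLK3, MT2A and the other metallothioneins, KRT7 and PTPRC fall outside it and were chosen after their values were seen. Promoters are from RefSeq (GRCh38.p14), for 7 of 7 STEAP genes and antisense genes searched. Same-letter deviations correlated at -0.084 to 0.081 between groups, which does not settle whether the letters A and B pair arrays by experiment. The report's fit leaves the letters out, and the replicate block is 1 of the alternatives.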

Additional observations from a re-analysis of the deposited data

Results flagged for a closer look

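STEAP4 was lower with calcitriol than in control (-0.26) and higher in the combination than with TGF-β1 alone (0.39), with no overlap between the arrays in either comparison. The difference between these effects is the interaction of 0.65 ± 0.14, a description with no test, since it is built from the arrays that led to the choice of the family. STEAP2 showed the same opposition at a smaller size, with -0.11 and 0.11, and an interaction of 0.22 ± 0.14 (adjusted p = 0.974). The STEAP2 interaction did not pass the test. With 2 arrays per group no array could be examined as an outlier.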

How the results depend on the processing

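Over 17 alternatives (16 for the interaction), STEAP4 kept its direction in all 6 comparisons. Most of this was fixed in advance. Each STEAP gene has 1 feature, so a change of filter, genes tested, variance model or block cannot move its log2 change. Only rescaling and leaving out arrays of the groups compared could. The change of STEAP4 ran from -1.53 to -1.42 for TGF-β1 against control. It stood at -0.97 for the combination against control after cyclic loess over protein-coding genes. That step moved the median of protein-coding genes in the combination from -0.12 to -0.0043. Against control, where STEAP4 carries no test, its value in the combination was -1.09 with only the arrays compared and -1.15 to -1.03 without single arrays. Against calcitriol, also a description, it was -0.83 with only the arrays compared and -0.87 to -0.79 without single arrays. Fewer samples enter these fits. Values near 0 changed sign: STEAP2 with TGF-β1 (0.0015) and the STEAP1 interaction (0.0014) after loess, and others without single arrays. For STEAP1 the range without single arrays was -0.021 to 0.066 with calcitriol and -0.045 to 0.12 in the combination (both against control), -0.078 to 0.084 for the combination against TGF-β1, -0.068 to 0.095 against calcitriol, and -0.10 to 0.062 for the interaction. For STEAP1B it was -0.088 to 0.17 for the combination against TGF-β1 and -0.22 to 0.037 for the interaction. The cause was not tested.

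Counts of genes called moved widely: from 12 to 762 for TGF-β1 against control (145 in the report's fit), 13 to 3072 (542) for the combination over control, 0 to 1059 (140) for the combination over calcitriol, 0 to 18 for calcitriol (2), 0 to 5 for the combination against TGF-β1 (0) and 0 to 2 for the interaction (0). With the replicate block the counts were 43, 213 and 66 in the first 3 of these. The block changed no call of a STEAP gene where a test was made.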

Other observations

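Metallothioneins, small proteins that bind copper and zinc, were higher in every comparison that adds TGF-β1, although none passed the threshold. All 7 tested members lay above control with no overlap with TGF-β1 (17.1% of all genes did so), with log2 changes of 0.41 to 0.65 (adjusted p = 0.114 to 0.197). The combination stood 0.19 to 0.66 above control (adjusted p = 0.0776 to 0.306) and 0.27 to 0.75 above calcitriol (adjusted p = 0.129 to 0.309), again with 7 of 7 apart, against 20.6% of all genes in each. All 7 stayed above in these 3 comparisons after cyclic loess over protein-coding genes and after quantile normalization. MT2A, for example, averaged 12.31 ± 0.011 in the combination, 12.53 ± 0.044 with TGF-β1, 12.03 ± 0.11 with calcitriol and 12.12 ± 0.087 in control (SD, n = 2 each). With a variance model that follows the mean level and is robust, 7 copper genes rose and 0 fell with TGF-β1 against control, all of them metallothioneins. In the combination against control that model called 7 higher, 6 metallothioneins and LOX, a copper-dependent oxidase (0.63 ± 0.18), and 2 lower, the copper chaperone ATOX1 (-0.35 ± 0.10) and the superoxide dismutase SOD1 (-0.30 ± 0.069). Against calcitriol it called 5 higher, all metallothioneins, and ATOX1 lower (-0.36 ± 0.10). These genes are near-identical copies that the array may not separate, so the 7 are not independent, and they were singled out after their values were seen.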
